A study of Mus musculus with 6 samples.

Results

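The C-type lectin (Clec) genes were examined in damaged hepatocyte (dHep) cultures treated with solvent or with either of 2 compound cocktails. Genes were taken as members when their symbol began with Clec followed by a number and a letter, which gave 34 of the 52323 genes in the count table. RNA-seq was available for 6 libraries, 2 each of DMSO, 3C and 5C, all collected on day 16 of culture. The dHeps came from AAV-TBG-Cre:Rosa-LSL-tdTomato mice with CCl4 liver injury, in which the liver-specific TBG promoter drives Cre in hepatocytes, and all groups were kept in serum-free hepatocyte maintenance medium. The control group received the solvent DMSO alone. The 3C cocktail contained the protein kinase D inhibitor CID755673 at 50 µM, the ROCK inhibitor GSK429286A at 2 µM and the ATP citrate lyase inhibitor ETC-1002 at 5 µM. The 5C cocktail contained these compounds together with salidroside at 5 µM and forskolin, an activator of adenylate cyclase, at 2 µM. Cells were obtained by enzymatic perfusion of the liver, and the sources used here name no sort before culture. The paper reports that this isolation enriched cells with the hepatocyte label tdTomato. The labels give neither the age of the mice nor whether the replicates of a group were separate animals.

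C-type lectin receptors share a fold that in many of them binds sugars, and on macrophages and dendritic cells they recognise fungi, mycobacteria, dying cells and altered glycoproteins. Activating members such as Clec7a (Dectin-1) and Clec4e (Mincle) signal through ITAM-type motifs, either their own or those of the adaptors Fcer1g and Tyrobp, to the kinase Syk and the adaptor Card9. Inhibitory members such as Clec12a carry ITIM motifs that recruit phosphatases. Other members are known from different cells. Clec4f marks mouse Kupffer cells, Clec9a marks cross-presenting dendritic cells, and Clec14a is endothelial. Clec1b is a receptor for podoplanin known from platelets, and Clec11a is a secreted stromal growth factor.

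Library totals ranged from 65916573 to 69245895 counts. Levels of 1 gene in different libraries are given in CPM, counts scaled to the library total. Levels of different Clec genes are compared only in FPKM, which is also scaled for transcript length. Marker genes and their sums are given in CPM, without scaling for length. A floor of 12 counts was set as the limit of detection, which corresponded to 0.173 to 0.182 CPM. A gene was called when the adjusted p of edgeR's quasi-likelihood test was under 0.05 and its absolute log2 fold change was above 1. With 2 libraries per group, p-values measure the spread between these libraries, which may be technical.

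Of the 34 genes, 24 passed the filter on low counts and were tested, and 15 reached a mean of 1 CPM over the 6 libraries. Clec12b, Clec2f, the pseudogene Clec2j, Clec2m, Clec3a and Clec4b1 had no count in any library. Clec4b2, Clec4a4, Clec4g (a receptor of sinusoidal endothelium) and Clec18a did not exceed 9 counts in any library and were not tested. The tested genes under 1 CPM were Clec1a, Clec1b, Clec2e, Clec2g, Clec2h, Clec2i, Clec2l, Clec3b and Clec9a. By gene position, 26 of the 34 genes lay on chromosome 6.

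The upstream sequences of genes from both kinds of response are shown because the results below separate Clec7a, Clec12a and Clec4e, which were lower with 5C, from the Kupffer cell gene Clec4f, which was not called. RefSeq promoter entries (build GRCm38.p6) existed for 26 of the 34 genes and for 13 of the 15 genes above 1 CPM. Clec10a and Clec4n had no entry. Each sequence is the 250 bases before the annotated start, 5′ to 3′ on the gene's strand, with capitals marking GAGGAA, the core of the element bound by the myeloid factor PU.1 (Spi1), or its reverse complement TTCCTC.
Clec7a (chr6:129472780-129473029, minus strand): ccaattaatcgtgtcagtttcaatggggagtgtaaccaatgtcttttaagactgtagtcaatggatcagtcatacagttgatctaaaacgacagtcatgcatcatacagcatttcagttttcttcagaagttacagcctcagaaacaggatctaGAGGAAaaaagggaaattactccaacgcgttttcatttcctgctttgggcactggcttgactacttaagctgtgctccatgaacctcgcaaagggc
Clec12a (chr6:129349994-129350243, plus strand): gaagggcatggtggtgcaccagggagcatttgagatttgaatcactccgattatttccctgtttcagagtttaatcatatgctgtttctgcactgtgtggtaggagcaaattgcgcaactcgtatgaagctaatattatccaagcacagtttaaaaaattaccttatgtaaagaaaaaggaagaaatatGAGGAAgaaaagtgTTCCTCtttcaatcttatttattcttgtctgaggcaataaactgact
Clec4e (chr6:123289872-123290121, minus strand): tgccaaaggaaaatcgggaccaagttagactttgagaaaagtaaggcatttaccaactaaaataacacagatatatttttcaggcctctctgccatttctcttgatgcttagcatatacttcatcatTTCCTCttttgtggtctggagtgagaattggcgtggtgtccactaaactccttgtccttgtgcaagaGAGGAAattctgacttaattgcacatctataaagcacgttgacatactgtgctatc
Clec4f (chr6:83656117-83656366, minus strand): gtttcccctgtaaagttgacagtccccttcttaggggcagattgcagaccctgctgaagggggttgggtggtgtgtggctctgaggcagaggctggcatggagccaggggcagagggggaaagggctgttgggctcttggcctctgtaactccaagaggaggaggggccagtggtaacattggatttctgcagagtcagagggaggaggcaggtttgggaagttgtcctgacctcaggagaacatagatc
GAGGAA was searched on both strands and was present upstream of 7 of the 8 genes with an entry that were called lower in 5C, namely Clec12a, Clec4a1, Clec4a3, Clec4d, Clec4e, Clec5a and Clec7a, and was absent upstream of Clec4a2. It was also present upstream of 7 of the other 18 Clec genes, among them Clec14a, Clec11a and Clec16a, which were not lower. Over all 27025 genes with an entry, 25.9% had it. A gene was counted when any of its entries held GAGGAA, and the Clec4a3 entry at chr6:122952265-122952514 did not hold it. A longer form, AGGAAGT, occurred in none of these Clec sequences and upstream of 8.8% of all genes. A match describes letters in this window and not a bound site.

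In the DMSO cultures the Clec transcripts were mainly those of macrophage and myeloid receptors. The 12 genes of that role held 92.9% and 91.8% of the summed Clec FPKM. Clec10a, the galactose-binding macrophage lectin MGL1, had the highest FPKM of the Clec genes at 84.1 and 77.0. Clec7a followed at 28.3 and 29.4 FPKM, and Clec4d, the mycobacterial glycolipid receptor MCL, had 24.6 and 22.3 FPKM. Clec4a1, of the DCIR family, overlapped Clec4d at 23.6 and 16.8 FPKM, and Clec12a (11.1 and 13.0 FPKM) could not be separated from Clec4a3 (11.9 and 12.3 FPKM). The same libraries held other macrophage transcripts, with the sum of 18 macrophage markers between 13835 and 14907 CPM in DMSO.

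**Figure D1:**
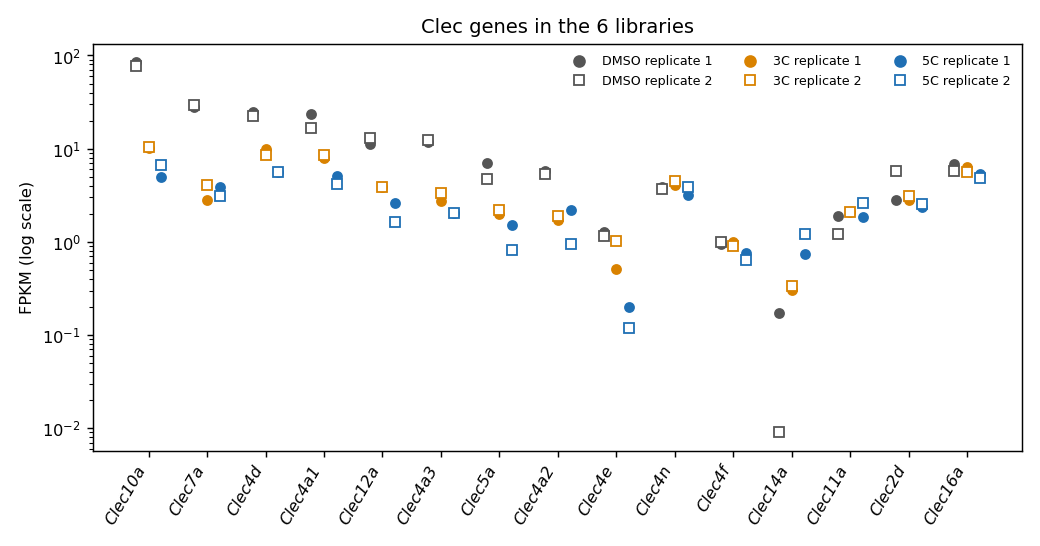
FPKM (log scale) of the 15 Clec genes above a mean of 1 CPM, with a point for each of the 6 libraries. The genes from Clec10a to Clec4e were highest in DMSO, Clec4n and Clec4f stayed close to their DMSO values, and Clec14a was highest in 5C.

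The summed Clec FPKM was 217 and 202 in DMSO, 59.8 and 62.3 in 3C, and 44.5 and 42.6 in 5C, so that the groups did not overlap. Most of this difference lay in the macrophage and myeloid genes, whose sum was 202 and 186 FPKM in DMSO, 46.0 and 48.6 in 3C, and 31.3 and 29.0 in 5C. Their share of the Clec FPKM was 76.8% and 78.0% in 3C and 70.4% and 68.1% in 5C. The genes outside that role were thus a larger part of a smaller total.

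**Figure D2:**
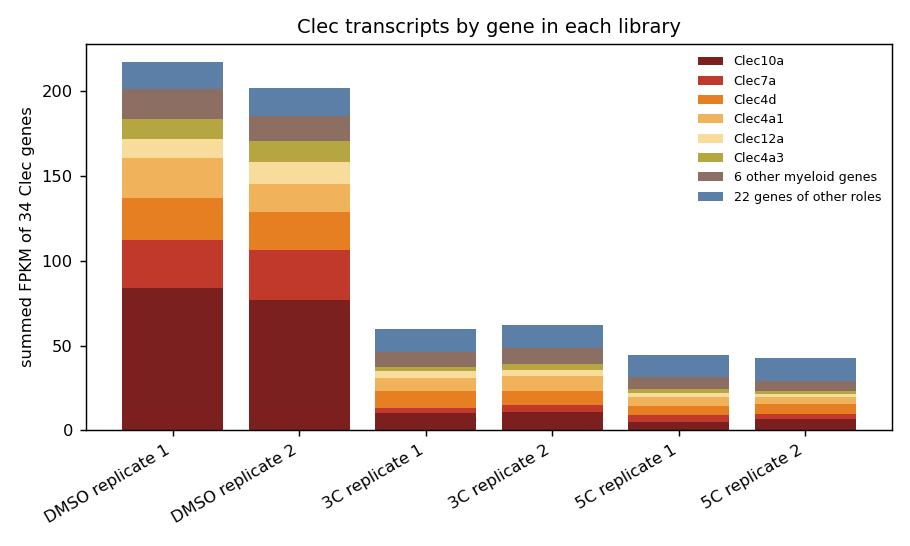
Summed FPKM of the 34 Clec genes in each of the 6 libraries, stacked by gene or gene group. The bars fall from 217 and 202 in DMSO to 44.5 and 42.6 in 5C, and Clec10a is the largest block of both DMSO bars.

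The effect of 5C was assessed against DMSO. Of the 24 Clec genes tested, 9 were lower and 1 was higher. Over all 19135 genes tested, 4.42% were called lower, 7.3% higher and 11.7% in either direction. The median log2 fold change was -0.62 over the 24 Clec genes and 0.00 over all genes. The 9 lower genes were Clec10a, Clec7a, Clec4e, Clec4a3, Clec12a, Clec4a1, Clec4d, Clec4a2 and Clec5a, all of the macrophage and myeloid role, in which 10 genes were tested and only Clec4n was not called. The libraries of the 2 groups did not overlap for 17 of the 24 genes, beside 63.1% of all genes.

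With 3C, 11 of the 24 Clec genes were lower than in DMSO and 0 were higher by edgeR, with 0 also at an unadjusted p under 0.05 and by DESeq2. Over all genes, 3.62% were called lower, 5.83% higher and 9.45% in either direction. These shares, and those given above for 5C, also stand beside the counts for each gene list and chromosome stretch below. The median log2 fold change of the 24 genes was -0.99, beside 0.01 over all genes. The 8 of these above 1 CPM were Clec10a, Clec7a, Clec4a3, Clec12a, Clec4d, Clec4a2, Clec4a1 and Clec5a, and the others were the weakly expressed Clec1b, Clec2h and Clec9a. The libraries of 3C and DMSO did not overlap for 19 of the 24 genes, beside 61.3% of all genes. The lists of 3C and 5C rest on shared DMSO libraries and are not independent of each other.

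**Figure D3:**
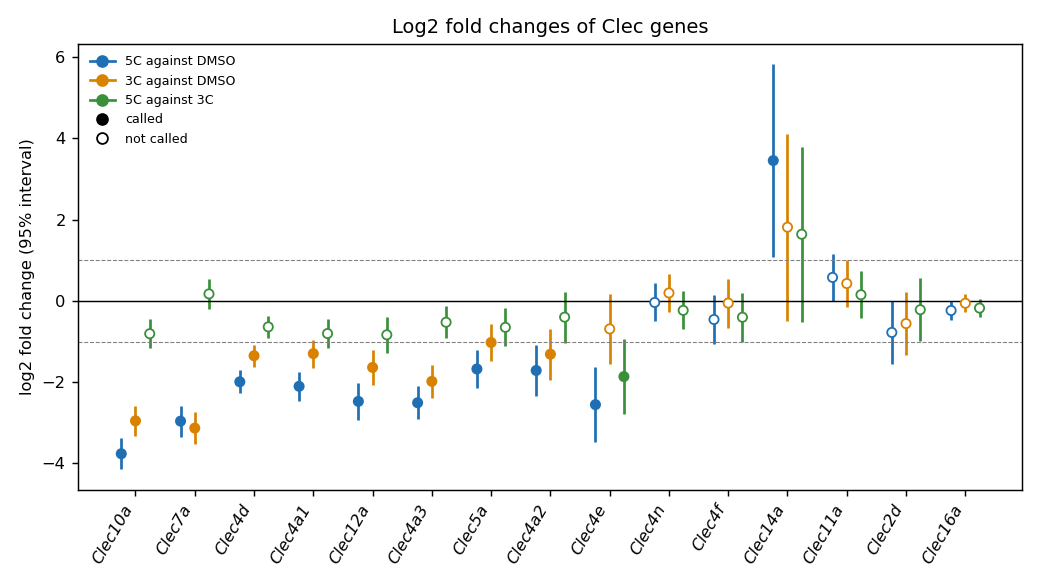
Log2 fold changes of the 15 Clec genes in the 3 comparisons, with lines for 95% intervals, filled points for called genes and dashed lines at the fold limit of 1. The intervals of 5C against DMSO lie below -1 for the 9 genes from Clec10a to Clec4e and reach across 0 for Clec4n and Clec4f.

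Among the Clec genes called lower with 5C, Clec10a had the largest fold change. Its level was 137 and 130 CPM in DMSO, 17.6 and 17.8 CPM in 3C, and 7.98 and 11.5 CPM in 5C. The 3 groups were separate, with DMSO highest and 5C lowest. The log2 fold change was -3.76 (SE 0.16, adjusted p = 2.04e-06) for 5C and -2.95 (SE 0.16, adjusted p = 8.57e-06) for 3C. By sequence, 9.97% of the 50-base words of its longest transcript were shared with other genes, mostly with its paralog Mgl2, whose own level did not exceed 0.85 CPM.

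Clec7a, the β-glucan receptor Dectin-1, was 54.3 and 56.8 CPM in DMSO, 5.39 and 7.58 CPM in 3C, and 7.66 and 6.46 CPM in 5C. Both cocktails were far below DMSO and overlapped each other. It was 8.75-fold lower with 3C (log2 fold change -3.13, SE 0.17, adjusted p = 4.36e-06) and 7.77-fold lower with 5C (log2 fold change -2.96, SE 0.17, adjusted p = 3.11e-06). The difference between 5C and 3C was 0.17 on the log2 scale, with a 95% interval from -0.20 to 0.54.

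Clec4d, Clec4e and Clec4n lie next to each other on chromosome 6 and encode receptors that pair with Fcer1g. Clec4d was 32.9 and 31.6 CPM in DMSO, 14.0 and 11.9 CPM in 3C, and 7.80 and 8.22 CPM in 5C, falling in each group without overlap. Its log2 fold change was -1.99 (SE 0.12, adjusted p = 4.98e-06) for 5C and -1.35 (SE 0.12, adjusted p = 5.55e-05) for 3C. Clec4e, the receptor Mincle for mycobacterial cord factor and the dead-cell protein SAP130, was 3.59 and 3.38 CPM in DMSO, 1.49 and 2.92 CPM in 3C, and 0.71 and 0.46 CPM in 5C. The 3C replicates differed from each other more than those of the other groups, and 5C was lowest. The log2 fold change was -2.55 (SE 0.41, adjusted p = 0.00144) for 5C and -0.69 (SE 0.38, adjusted p = 0.241) for 3C.

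Clec4n, which encodes the α-mannan receptor Dectin-2, did not follow its neighbours. It was 5.05 and 4.99 CPM in DMSO, 5.66 and 6.08 CPM in 3C, and 4.27 and 5.36 CPM in 5C, and the DMSO values lay within the range of 5C. The log2 fold change was -0.04 for 5C (95% interval -0.51 to 0.43, adjusted p = 0.917) and 0.19 for 3C (95% interval -0.27 to 0.66, adjusted p = 0.576). These intervals exclude a 2-fold decrease. In FPKM, Clec4n was 0.159 and 0.164 of Clec4d in DMSO, 0.405 and 0.528 in 3C, and 0.569 and 0.687 in 5C.

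The DCIR family genes Clec4a1, Clec4a2 and Clec4a3 were lower with both cocktails. Clec4a3 was 16.4 and 17.7 CPM in DMSO, 3.99 and 4.84 CPM in 3C, and 2.90 and 3.02 CPM in 5C, with a log2 fold change of -2.51 (SE 0.18, adjusted p = 1.12e-05) for 5C and -1.98 (SE 0.18, adjusted p = 5.37e-05) for 3C. Clec4a1 was 39.5 and 29.6 CPM in DMSO, 13.9 and 14.8 CPM in 3C, and 8.60 and 7.28 CPM in 5C, and its log2 fold changes were -2.10 (SE 0.16) for 5C and -1.30 (SE 0.15) for 3C. The groups were separate for both genes. Clec4a2, the ITIM-bearing receptor DCIR, was 9.81 and 10.9 CPM in DMSO, 3.38 and 5.16 CPM in 3C, and 3.82 and 2.44 CPM in 5C. The cocktails overlapped below DMSO, with log2 fold changes of -1.71 (SE 0.28, adjusted p = 0.00163) for 5C and -1.31 (SE 0.28, adjusted p = 0.00746) for 3C. The 3C call of Clec4a2 was lost without 3C replicate 1 (log2 fold change -1.04, adjusted p = 0.0625).

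Clec12a, the inhibitory receptor for uric acid crystals, was 29.5 and 36.5 CPM in DMSO, 10.9 and 10.8 CPM in 3C, and 7.09 and 4.66 CPM in 5C. DMSO was highest and 5C lowest without overlap, with log2 fold changes of -2.47 (SE 0.20, adjusted p = 2.27e-05) for 5C and -1.64 (SE 0.19, adjusted p = 0.000277) for 3C. Clec5a, an activating receptor that signals with Tyrobp, was 11.3 and 9.25 CPM in DMSO, 5.71 and 4.62 CPM in 3C, and 3.45 and 2.90 CPM in 5C. The 3 groups were separate, with log2 fold changes of -1.68 (SE 0.21, adjusted p = 0.000317) for 5C and -1.02 (SE 0.20, adjusted p = 0.00575) for 3C. The 3C call of Clec5a lay at the fold limit, with a log2 fold change of -0.89 without DMSO replicate 1 and -0.88 (adjusted p = 0.0591) without 3C replicate 2.

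The myeloid Clec genes were not the only myeloid transcripts that were lower. Of the 18 macrophage markers, 17 were tested and 15 were lower with each cocktail, among them Adgre1 (F4/80, log2 fold change -2.32 for 5C and -1.74 for 3C) and Csf1r (the receptor of macrophage colony-stimulating factor, -2.02 and -1.50). Their summed level was 4866 to 4891 CPM in 3C and 3208 to 3293 CPM in 5C. Cx3cr1 was higher with both cocktails, and Ccr2 was at or under the floor in all libraries. Cd14 was not called because it missed the fold limit, but it also moved upward with each cocktail. By edgeR its log2 fold change was 0.60 with 5C (adjusted p = 0.000734) and 0.86 with 3C (adjusted p = 0.000112). For the RNAs that were lower, bulk data cannot tell fewer macrophages from less RNA per macrophage. The part of cell number in the Clec differences was not tested.

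Set against the summed macrophage markers of the same library, the myeloid Clec genes took different courses, which are described here without a test. Clec10a was 9.92 and 8.75 CPM per 1000 CPM of the markers in DMSO, 3.59 and 3.66 in 3C, and 2.42 and 3.58 in 5C. Clec7a was 3.93 and 3.81 in DMSO, 1.10 and 1.56 in 3C, and 2.33 and 2.01 in 5C, so that both genes were below DMSO also on this scale. Clec4d remained between 2.12 and 2.86 in all 6 libraries. Clec4n was 0.365 and 0.335 in DMSO, 1.16 and 1.25 in 3C, and 1.30 and 1.67 in 5C, above DMSO with each cocktail. Clec4a3 was 1.18 and 1.19 in DMSO, 0.815 and 0.994 in 3C, and 0.879 and 0.941 in 5C, below DMSO. Clec5a was 0.817 and 0.621 in DMSO, 1.17 and 0.949 in 3C, and 1.05 and 0.905 in 5C, above DMSO. Lyz2 was the largest part of the marker sum, at 6024 and 6137 CPM in DMSO, with a log2 fold change of -2.44 for 5C and -1.78 for 3C. Tested markers of the list ranged from -2.95 to 6.10 for 5C, with a median of -2.00. The small shifts of Clec5a and Clec4a3 may depend on which markers are summed, which was not tested.

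**Figure D4:**
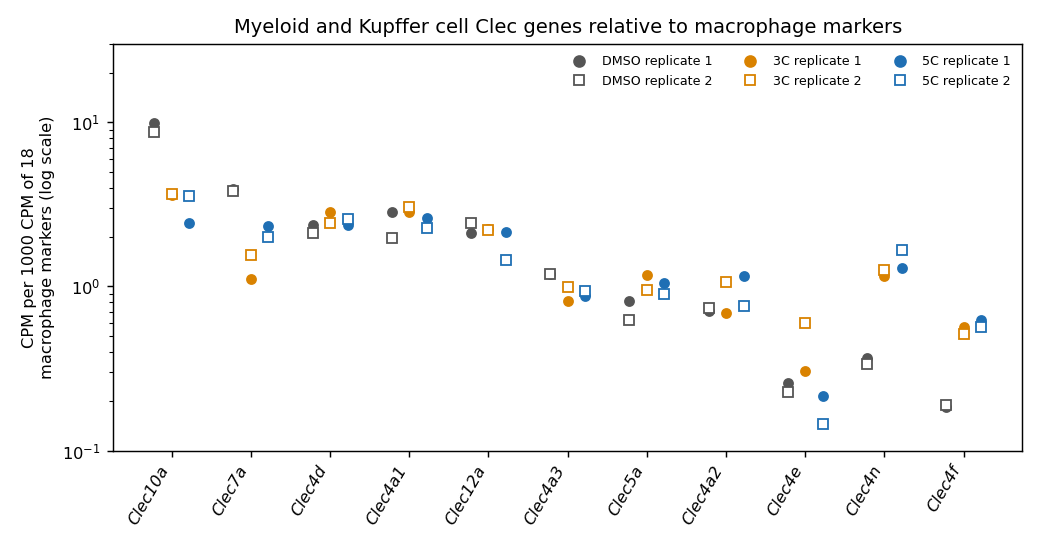
CPM of 11 myeloid and Kupffer cell Clec genes per 1000 CPM of the 18 summed macrophage markers (log scale), with a point for each of the 6 libraries. Clec10a, Clec7a and Clec4a3 were lower in both cocktails, Clec4n, Clec4f and Clec5a were higher, and Clec4d stayed between 2.12 and 2.86.

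Clec4f, the Kupffer cell receptor for galactose-bearing glycolipids, was 2.55 and 2.81 CPM in DMSO, 2.78 and 2.49 CPM in 3C, and 2.04 and 1.81 CPM in 5C. The 5C libraries were the lowest and 3C overlapped DMSO. The log2 fold change was -0.46 for 5C (95% interval -1.06 to 0.15, adjusted p = 0.251) and -0.06 for 3C (95% interval -0.66 to 0.55, adjusted p = 0.917). Of 7 other Kupffer cell markers, all tested, 4 were lower with each cocktail and 1 was higher. The scavenger receptor Marco had a log2 fold change of -2.95 for 5C and -1.87 for 3C, and the complement receptor Vsig4 of -1.75 and -1.88, whereas the transcriptional regulator Id3 was higher (1.73 and 1.11).

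Dendritic members were near the limit of detection. Clec9a, the receptor for actin exposed on dead cells, was 0.43 and 0.26 CPM in DMSO, 0 in both 3C libraries, and 0.10 and 0.17 CPM in 5C. It was called lower with 3C (adjusted p = 0.0182), at least 1.93-fold lower against the floor of the group, and in 5C both libraries were at or under the floor. The call was lost in each of the 3 fits that left out DMSO replicate 1, 3C replicate 1 or 3C replicate 2 (adjusted p = 0.0963, 0.0840 and 0.0843). In addition, 77.1% of its exonic bases overlapped Clec1a on the opposite strand, and whether counting used strand is not given in the sources used here. Flt3, Xcr1, Itgae, Siglech and Ccr7 were at or under the floor, so 5 of 12 dendritic cell markers gave no signal. Of the 7 markers tested, 2 were lower with 5C, 3 were lower with 3C and 0 were higher with either. Irf8 and Cd83 were lower with both cocktails, and both are also expressed by macrophages. Itgax was called lower with 3C only. Zbtb46, Batf3, Irf4 and Ccr9 were not called, and Zbtb46 had log2 fold changes of -0.09 for 5C and -0.17 for 3C.

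Clec14a, an endothelial receptor whose ligand is the matrix protein Mmrn2, was the Clec gene called higher with 5C. It was 0.86 and 0.06 CPM in DMSO, 1.60 and 1.71 CPM in 3C, and 3.71 and 6.24 CPM in 5C. The groups did not overlap, but DMSO replicate 2 held only 4 counts, under the floor. The log2 fold change was 3.45 (SE 0.96, adjusted p = 0.0444) for 5C and 1.81 (SE 0.93, adjusted p = 0.241) for 3C. The 5C value was 6.32 without DMSO replicate 1 and 2.56 without DMSO replicate 2. The 3C value was 4.69 and called without DMSO replicate 1 (adjusted p = 0.00107) and 0.93 without DMSO replicate 2 (adjusted p = 0.173). The 5C call was lost in each of the fits without a 3C or 5C library (adjusted p from 0.103 to 0.155).

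Other genes of the endothelial marker list moved in both directions in the same libraries. Of 16 markers tested, 9 were higher and 3 were lower with 5C, beside 7.3% and 4.42% of all genes. The lower markers were the scavenger receptor Stab1 (log2 fold change -1.68), the hyaluronan receptor Lyve1 (-2.42) and the clotting protein gene Vwf (-2.43). Stab1 and Lyve1 had the highest CPM of the list in DMSO, with means of 1716 and 314 CPM there and 527 and 57.6 CPM in 5C. The other markers had means in DMSO from 0 CPM (Erg) to 32.9 CPM (Esam). Which cells held the Stab1 and Lyve1 RNA was not tested. The summed level of the list was 1872 to 2363 CPM in DMSO, 952 to 956 CPM in 3C and 784 to 844 CPM in 5C. This sum mostly reflects Stab1 and Lyve1, and the 9 higher markers moved in the same direction as Clec14a. Cdh5, the cadherin of endothelial junctions, was 1.25 and 1.06 CPM in DMSO, 6.45 and 14.9 CPM in 3C, and 43.3 and 72.2 CPM in 5C. Mmrn2 was 0.52 and 0.18 CPM in DMSO, 1.01 and 1.73 CPM in 3C, and 4.40 and 8.78 CPM in 5C, with a log2 fold change of 4.25 (SE 0.58, adjusted p = 0.00081) for 5C. In both genes 5C replicate 2 was the highest library, as it was for Clec14a, and the part of endothelial cell number was not tested.

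Clec1a and Clec1b, which are adjacent on chromosome 6, were weakly expressed. Clec1a, an endothelial and dendritic receptor for fungal melanin, was 0.45 and 0.96 CPM in DMSO, 0.32 and 0.10 CPM in 3C, and 0.87 and 1.59 CPM in 5C. It was higher in 5C than in 3C (log2 fold change 2.60, SE 0.70, adjusted p = 0.0432) and was not called against DMSO in either cocktail. The call was lost in each of the fits without a 3C or 5C library (adjusted p from 0.0581 to 0.240), and 36.8% of its exonic bases overlapped Clec1b or Clec9a on the opposite strand. Clec1b was 1.79 and 1.44 CPM in DMSO, 0.35 and 0.79 CPM in 3C, and 0.70 and 0.68 CPM in 5C, below DMSO with both cocktails. It was called lower with 3C (log2 fold change -1.53, SE 0.49, adjusted p = 0.0494) and not with 5C (-1.21, SE 0.48, adjusted p = 0.0955). Of the exonic bases of Clec1b, 20.6% overlapped Clec1a on the opposite strand. Without 3C replicate 1 the 3C value was -1.05. The call was held in 8 of 19 alternatives, including those with a looser threshold. Of 8 megakaryocyte and platelet markers, Gp9, Gp6, Ppbp and Tubb1 did not rise above the floor in any library, and Gp1ba, Gp1bb and Gp5 were tested and not called. Itga2b, the integrin subunit of megakaryocytes and platelets, was 3.05 and 1.87 CPM in DMSO, 0.75 and 0.88 CPM in 3C, and 2.06 and 2.11 CPM in 5C. Like Clec1b it was called lower with 3C (log2 fold change -1.62, SE 0.35, adjusted p = 0.00885), and it was higher in 5C than in 3C (1.40, adjusted p = 0.0315). Of the 7 Kupffer cell markers, 4 were lower with each cocktail and 1 was higher, as given above. The part of platelets, Kupffer cells or other cells in the Clec1b values was not tested. Pdpn, which encodes the Clec1b ligand podoplanin, was 107 and 94.6 CPM in DMSO, 106 and 101 CPM in 3C, and 224 and 227 CPM in 5C, and was called higher in 5C against each of the other groups (log2 fold change 1.18 against DMSO and 1.18 against 3C).

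The stromal, Clec2 and remaining genes above 1 CPM were not called in any comparison of all 6 libraries. Clec11a was 6.12 and 4.05 CPM in DMSO, 7.01 and 6.95 CPM in 3C, and 6.08 and 8.84 CPM in 5C, and DMSO overlapped 5C. Clec2d, a ligand of the natural killer receptor Klrb1b, was 3.68 and 7.92 CPM in DMSO, 3.87 and 4.21 CPM in 3C, and 3.19 and 3.51 CPM in 5C, with a wide spread in DMSO. Without DMSO replicate 1 it was called lower with 5C (log2 fold change -1.23, adjusted p = 0.00782) and with 3C (-1.02, adjusted p = 0.0222), and without DMSO replicate 2 the values were -0.10 and 0.12. Clec16a, an endosomal protein of mitophagy, was 42.3 and 37.2 CPM in DMSO, 41.5 and 36.5 CPM in 3C, and 34.3 and 32.2 CPM in 5C. The 95% intervals for 5C were 0.00 to 1.16 for Clec11a, -1.55 to -0.01 for Clec2d and -0.46 to -0.01 for Clec16a, with adjusted p of 0.133, 0.128 and 0.116.

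Clec2h was the Clec2 gene called in a comparison. It was 1.56 and 1.29 CPM in DMSO, 0.36 and 0.41 CPM in 3C, and 1.45 and 0.65 CPM in 5C. The 3C libraries were lowest and 5C overlapped DMSO. It was lower with 3C (log2 fold change -1.91, SE 0.50, adjusted p = 0.0212), and the call was lost without DMSO replicate 1, 3C replicate 1 or 3C replicate 2 (adjusted p = 0.0766, 0.118 and 0.0902). Klrb1a, Klrb1b and Klrb1f, which encode receptors of the family that binds Clec2 proteins, did not rise above the floor, nor did the 8 lymphocyte markers. The stromal Clec3b (tetranectin) did not exceed 31 counts in any library.

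The addition of salidroside and forskolin was examined by comparing 5C with 3C. Of the 24 Clec genes, 1 was called lower (Clec4e) and 1 higher (Clec1a), beside 0.852% and 2.16% of all genes, and 3.01% in either direction. Clec4e had a log2 fold change of -1.86 (SE 0.40, adjusted p = 0.0167), which became -1.30 (adjusted p = 0.137) without 3C replicate 2 and -1.61 (adjusted p = 0.117) without 5C replicate 2. Clec10a, Clec12a, Clec4a1 and Clec4d were lower in 5C at an adjusted p under 0.05 without reaching the fold limit, with log2 fold changes of -0.81, -0.83, -0.80 and -0.64. Clec12a passed it without 5C replicate 1 (-1.16, adjusted p = 0.0112) and Clec10a without 5C replicate 2 (-1.12, adjusted p = 0.00220). Clec14a (log2 fold change 1.64, adjusted p = 0.331) was called higher in 5C than in 3C without DMSO replicate 1 (adjusted p = 0.0128) and without DMSO replicate 2 (adjusted p = 0.0118), at nearly the same fold change. Without a fold limit, 6 of the 24 Clec genes passed, beside 12.7% of all genes. The libraries of 5C and 3C did not overlap for 18 of the 24 genes, beside 58% of all genes. The summed macrophage markers were also lower in 5C than in 3C, with log2 fold changes of single markers from -0.95 to -0.13, within the fold limit.

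Along chromosome 6 the response varied within short distances. The stretch from Clec4a1 to Clec4e (chr6:122896122-123266829, GRCm39) holds 9 Clec genes, of which 6 were tested, 5 were lower with 5C and 4 were lower with 3C. Clec4n lies in it, 15.1 kb from Clec4d, and was not called. Clec4d and Clec4e are 6.52 kb apart. The stretch from Clec2j to Clec7a (chr6:128629379-129449742) holds 14 Clec genes, of which 10 were tested, 2 were lower with 5C and 5 were lower with 3C. Clec12a and Clec7a were lower with both cocktails. The others lower with 3C were the weakly expressed Clec1b, Clec2h and Clec9a, whose calls were lost in fits without single libraries. Clec5a (chr6:40551234-40562773) and Clec4f (chr6:83621524-83633169) are separate from both, and Clec10a is on chromosome 11 (chr11:70047023-70061660).

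Signalling genes downstream of the receptors were lower in part. Of 26 genes of the C-type lectin signalling list, all tested, 16 were lower with 5C and 12 were lower with 3C. Over all genes, the shares called lower were 4.42% and 3.62%. The highest log2 fold change in the list was 0.09 for 5C and 0.17 for 3C, and between 5C and 3C the values ranged from -0.998 to 0.196, within the fold limit. Syk was 128 and 121 CPM in DMSO, 46.6 and 47.4 CPM in 3C, and 33.9 and 28.8 CPM in 5C, with a log2 fold change of -1.97 (SE 0.09) for 5C and -1.44 (SE 0.08) for 3C. Fcer1g (-1.74 for 5C, -1.31 for 3C), Tyrobp (-2.26 and -1.73) and Card9 (-2.04 and -1.53) were also lower, and Plcg2, a phospholipase downstream of Syk, had values of -1.61 and -1.18. Bcl10 and Malt1, which form a complex with Card9, and the NF-κB subunits Rela and Nfkb1 were not called, with log2 fold changes for 5C of -0.25, -0.48, -0.18 and -0.02.

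Genes that these receptors can induce, namely cytokines, chemokines, the prostaglandin synthase Ptgs2 and the transcription factor Egr2, did not move in a common direction. Of 16 such genes, 13 were tested. With 5C, 1 was higher and 3 were lower, beside 7.3% and 4.42% of all genes. With 3C, 2 were higher and 2 were lower, beside 5.83% and 3.62% of all genes. The chemokine Ccl2 was 32.0 and 37.5 CPM in DMSO, 135 and 131 CPM in 3C, and 86.9 and 73.0 CPM in 5C. It was higher with both cocktails, at a log2 fold change of 1.22 (SE 0.10) for 5C and 1.90 (SE 0.11) for 3C. Cxcl1 was higher with 3C (1.59) and had a value of 0.90 with 5C. The genes lower with 5C were Il1a, Ccl3 and Ccl4, and those lower with 3C were Il1a and Ptgs2. Il1b, Il12b and Csf2 were at or under the floor.

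C-type lectin fold genes outside the Clec names moved in both directions. Of 27, 18 were tested, and with each cocktail 3 were higher and 5 were lower. Over all genes, 7.3% were higher and 4.42% lower with 5C, and 5.83% and 3.62% with 3C. The mannose receptor Mrc1, a macrophage and sinusoidal endothelial gene, was lower with 5C (log2 fold change -1.59, SE 0.08) and with 3C (-1.18, SE 0.08). The hepatocyte asialoglycoprotein receptor gene Asgr1 was 0.30 and 0 CPM in DMSO, 2.05 and 2.77 CPM in 3C, and 16.4 and 19.3 CPM in 5C, higher in each cocktail. Of 9 hepatocyte markers tested, 8 were higher with 5C and all 9 with 3C, in the libraries where the myeloid Clec genes were lower.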

How the data were processed

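RNA-seq of 6 libraries was used, grouped by the labels. The authors deposited estimated counts, not normalized and given as whole numbers, for 52323 genes, and FPKM, scaled for gene length and library total. The submitters' processing notes name featureCounts, Subread and DESeq2, without version or role, and the build GRCm39. How many counts stand for a fragment is not given. Among low counts, 1 was the most frequent (6338 entries), and 4 was more frequent than 3 or 5 (4816 entries beside 3121 and 2303). From the excess of 4, 4 counts per fragment were assumed, and the floor of 3 fragments was 12 counts. Not all entries follow such steps, and the floor rests on this assumption. The floor and the bounds set against it cover counting error only. Because counts may come in steps, and because the ratio of count to FPKM varied over 1.2-fold between libraries in 11.9% of 12703 genes, fold changes rest on counts and FPKM serves for levels.

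Counts were tested with edgeR 4.0.16 in R 4.3.3 (quasi-likelihood F test, robust dispersions, TMM, filterByExpr) on all 6 libraries and 19135 genes, with 3 residual degrees of freedom and a common biological coefficient of variation of 18.4%. Adjusted p-values are Benjamini-Hochberg values over all genes of a comparison. SE is the standard error implied by the F statistic, and intervals are 95%. Named genes are the Clec genes themselves and members of fixed lists of markers, signalling genes and ligands. The Clec genes and these lists were chosen with earlier results of these data known. In simulations of 5C against DMSO over 19135 genes, edgeR found 184 to 186 of 200 altered genes and made 5 to 15 false calls. Counts were drawn with the fitted dispersions, and the altered genes had a mean of at least 1 CPM and a change above the fold limit. Recovery of weaker genes or of changes near that limit was therefore not covered. Alternatives used DESeq2 1.42.0, limma 3.58.1, other normalizations, filters and thresholds, a replicate block and leaving out each library. Gene positions came from the GENCODE annotation of GRCm39, and promoter sequences from RefSeq (GRCm38.p6). Figures were drawn with matplotlib 3.10.9. Protein sequences were not used here.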

Additional observations from a re-analysis of the deposited data

Results flagged for a closer look

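Clec1a was the tested Clec gene whose log2 fold changes against DMSO had opposite signs in the 2 cocktails and differed by a test of the difference itself. The log2 fold change against DMSO was 0.83 in 5C and -1.77 in 3C, and the difference of 2.60 had an adjusted p of 0.0432 by edgeR. Both 5C libraries were above both 3C libraries. Counts were low, at 30 and 63 in DMSO, 21 and 7 in 3C, and 60 and 110 in 5C. The difference was called in 10 of 18 alternatives, including those with a looser threshold. Part of its exons overlaps Clec9a and Clec1b on the opposite strand, and their share in the counts was not tested.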

How the results depend on the processing

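Over 19 alternatives, 12 of 23 calls of Clec genes were held in every alternative run. These were Clec10a, Clec12a, Clec4a3, Clec4d and Clec7a with both cocktails, and Clec4a1 and Clec5a with 5C. The alternatives without a fold limit and with an unadjusted p only loosened the threshold on the main fit. A call of the main run could not be lost there. The replicate numbers did not pair the samples (correlations of deviations -0.05, 0.02 and 0.06). Under a replicate block the genes called higher went from 1 to 0 for 5C against DMSO and from 1 to 0 for 5C against 3C, and the counts of lower genes stayed within 1.5-fold. The count of genes higher in 5C than in DMSO was 0 when all genes with 1 count or more were kept, when 10 counts were required in each library, in the fit to only 4 libraries, in the test against a log2 fold change of 1 and in limma on log2(FPKM + 1). It ranged from 0 to 1 when a library was left out. The count lower in 3C than in DMSO was 5 in the test against a log2 fold change of 1 and 7 to 10 when a library was left out, and the count higher was 0 to 1. For 5C against 3C the count higher was 0 with at least 10 counts in every library, in the test against a log2 fold change of 1 and in limma on FPKM with either pseudocount (1 or 0.1). It was 2 in the fit to 4 libraries, 3 with an unadjusted p, and 0 to 2 when a library was left out. The count lower was 5 without a fold limit, 0 in the test against a log2 fold change of 1 and in limma on FPKM, and 0 to 2 when a library was left out. Log2 fold changes changed sign, all without a call, when a library was left out. In 3C against DMSO, Clec16a (0.022 without DMSO replicate 1, 0.028 without 3C replicate 2) ranged from -0.15 to 0.028, Clec2d (0.12 without DMSO replicate 2) from -1.02 to 0.12, and Clec4f (0.035 without DMSO replicate 2, 0.019 without 3C replicate 2) from -0.14 to 0.035. In 5C against DMSO, Clec4n ranged from -0.23 to 0.13 (without 5C replicate 1) and Clec2h from -1.10 to 0.025 (without 5C replicate 2). In 5C against 3C, Clec7a ranged from -0.054 to 0.44 and Clec1b from -0.15 to 1.03 (lowest without 3C replicate 1), and Clec11a from -0.17 (without 5C replicate 2) to 0.40. The causes were not tested. Dividing the counts by 4 was added after the data had been seen, and moved no count of calls by over 1.5-fold. Clec14a, Clec1a and Clec9a had no value in some alternatives. Depth limits Clec9a and Clec3b, and Clec1a in 3C, where counts were near or under the floor of 12.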
